A study of Saccharomyces cerevisiae with 2 samples.

Results

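The genes described here encode the nuclear part of the yeast respiratory chain and the mitochondrial ATP synthase. They were chosen by name and function, as the nuclear genes of complex II (4 genes), complex III (9 genes), complex IV (11 genes), the ATP synthase (13 genes) and cytochrome *c* (2 genes), which gives 39 genes of the 9633 transcripts and of the 5775 nuclear ORFs listed in the deposited table. The rule used no expression value, though the choice was made with earlier results of these data known. All 39 were found, had reads in both libraries and are reported.

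RNA-seq was performed on *xrn1*∆ *trf4*∆ and on *trf4*∆ cells of the BY4741 background, both from asynchronous cultures growing exponentially in YPD, a rich glucose medium. Both strains lack Trf4p, which as part of TRAMP adds short poly(A) tails to nuclear RNAs and so marks them for the exosome, and *xrn1*∆ *trf4*∆ also lacks Xrn1p, the main cytoplasmic 5′–3′ exoribonuclease. The comparison thus asks what the loss of Xrn1p changes in cells without Trf4p. It rests on 1 library from 1 culture per strain, so no difference has a replicate check, no p-value is given, and a difference in growth state between the 2 cultures cannot be told apart from the effect of the deletion.

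In the inner mitochondrial membrane of *S. cerevisiae*, complex II oxidizes succinate, complex III passes electrons from ubiquinol to cytochrome *c*, and complex IV (cytochrome *c* oxidase) passes them to oxygen. Complexes III and IV pump protons, and the ATP synthase uses the proton gradient to make ATP. Budding yeast has no proton-pumping complex I and uses single-subunit NADH dehydrogenases instead. Complexes III and IV and the ATP synthase combine subunits of both genomes, with *COB*, *COX1*, *COX2*, *COX3*, *ATP6*, *ATP8* and *OLI1* encoded in the mitochondrion. Known elements of this regulon are the CCAAT box, bound by the glucose-repressed Hap2/3/4/5 activator upstream of many respiratory genes, and the binding site of Puf3p, an RNA-binding protein that acts on the 3′ ends of many nuclear mRNAs for mitochondrial proteins and is known to promote decay of *COX17* mRNA on glucose.

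The unit is a read density, the number of reads per nucleotide of a transcript after the authors' normalization on ORF reads, and log2 ratios are those of *xrn1*∆ *trf4*∆ to *trf4*∆ density, with no pseudocount. Multiplied by the length of the gene in R64, the yeast reference assembly, the densities came out as whole reads, within 0.01, for 38 of the 39 genes and for 5738 of the 5770 ORFs found in R64 (12121664 reads in *xrn1*∆ *trf4*∆ and 7455598 in *trf4*∆). The 39 genes had between 29 and 10397 reads in *xrn1*∆ *trf4*∆ and between 3 and 6584 in *trf4*∆. For single genes, a 95% interval of the ratio was taken from the split of its reads between the libraries (binomial, Clopper-Pearson), and it covers counting error only. The labels were checked on the deleted genes. *TRF4* had 1 read in *xrn1*∆ *trf4*∆ and 0 in *trf4*∆ (a count of 0 allows up to 3 reads, here a density of 0.00171). *XRN1* had 111 reads in *xrn1*∆ *trf4*∆, against 7272 in *trf4*∆.

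Most of these mRNAs were higher in *xrn1*∆ *trf4*∆. The density was higher there for 37 of the 39 genes, where 82% of the 5638 ORFs with reads in both libraries were higher. It was at least 2-fold higher for 17 genes (43.6%, against 40.1% of ORFs), at least 4-fold higher for 2 genes, *COX14* and *CYC7* (6.35% of ORFs), and at least 2-fold lower for 0 genes (2.63% of ORFs). The share of genes past 2-fold was thus near that of ORFs in general. The median log2 ratio was 0.92, or 1.89-fold (quartiles 0.69 and 1.43). The ORFs had a median of 0.78 and quartiles of 0.20 and 1.34. The spread among the genes was somewhat narrower than among ORFs, with an SD of the log2 ratios of 0.64, against 0.89. Counting intervals lay above 0 for 37 genes and below 0 for 1 gene. Against the ORF median, they lay above it for 16 genes, below it for 8 and held it for 15. The interval of *CYC7*, on 29 reads in *xrn1*∆ *trf4*∆ and 3 in *trf4*∆, was 0.91 to 4.96 and so reached below 2-fold. Scaling the libraries to the same median ORF density moves every log2 ratio by -0.94. Then 19 of the 39 genes are higher in *xrn1*∆ *trf4*∆, where 42.4% of ORFs are, and 3 genes at least 2-fold, where 7.45% of ORFs are.

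**Figure D1:**
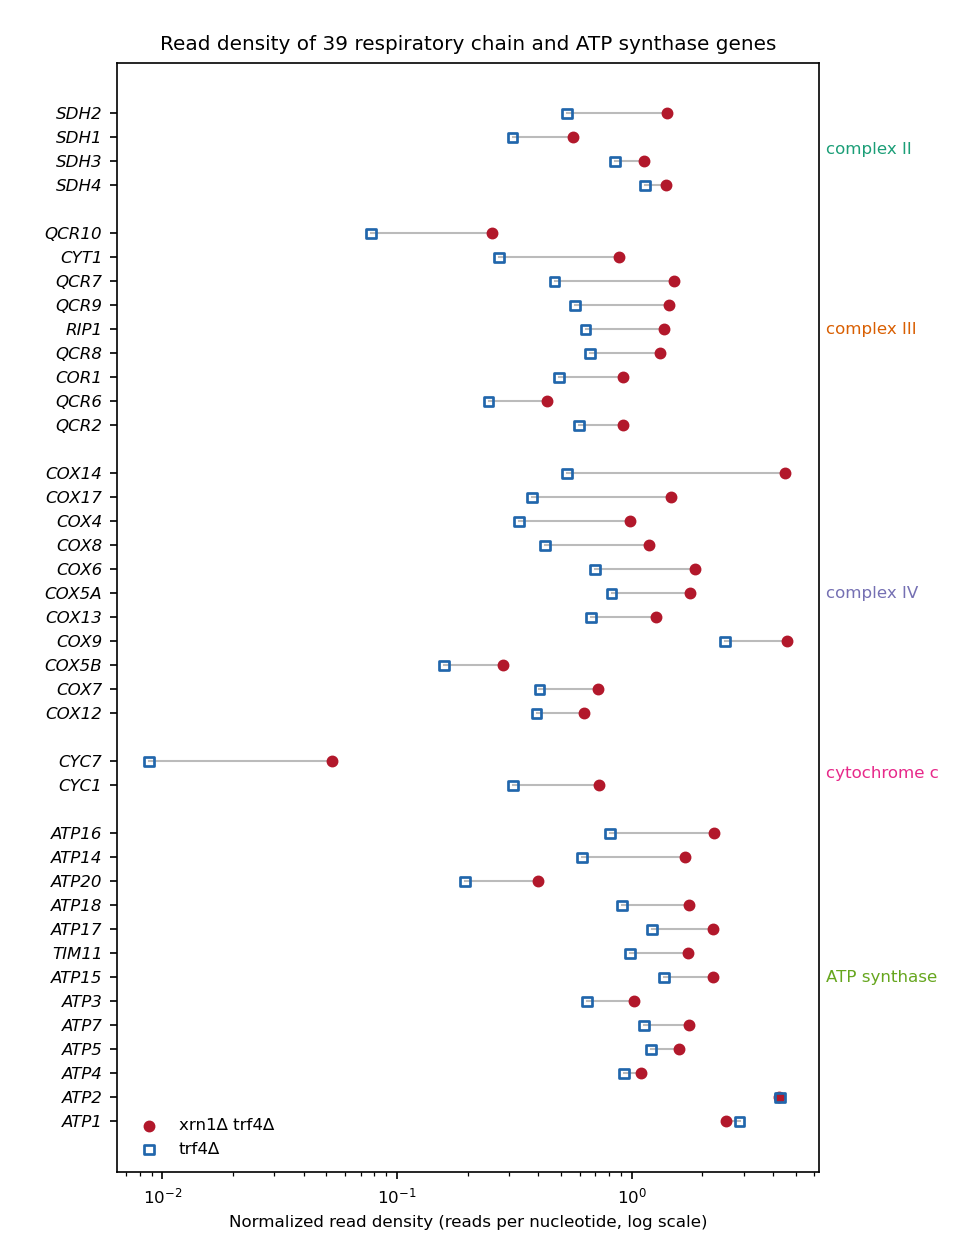
Normalized read density (reads per nucleotide, log scale) of each of the 39 genes in *xrn1*∆ *trf4*∆ (filled circles) and *trf4*∆ (open squares), grouped by complex, 1 library per strain. The circle lies right of the square for 37 genes, and *ATP2* and *ATP1* are the exceptions.

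These genes are expressed above most ORFs. Their median density was 1.37 in *xrn1*∆ *trf4*∆ and 0.613 in *trf4*∆. Among ORFs these stand at the 82.0th percentile in *xrn1*∆ *trf4*∆ and the 73.8th in *trf4*∆, and 34 of them lay above the ORF median density in each library. The highest densities in *xrn1*∆ *trf4*∆ were those of *COX9* (4.59), *COX14* (4.51), *ATP2* (4.24), *ATP1* (2.53) and *ATP16* (2.25). In *trf4*∆ the order was *ATP2* (4.29), *ATP1* (2.88), *COX9* (2.49), *ATP15* (1.37) and *ATP17* (1.22). *COX14* thus held rank 2 of the 39 genes in *xrn1*∆ *trf4*∆ and rank 24 in *trf4*∆. The least expressed gene in both was *CYC7*. Without it, the highest and lowest of the other 38 densities differed 18.0-fold in *xrn1*∆ *trf4*∆ and 55.4-fold in *trf4*∆. The SD of their log2 densities was 0.96 in *xrn1*∆ *trf4*∆ and 1.12 in *trf4*∆, and that of ORFs in general was also smaller in *xrn1*∆ *trf4*∆, 1.99, against 2.21 in *trf4*∆. Over the 38 genes with whole reads, the set took 0.432% of ORF reads in *xrn1*∆ *trf4*∆ (95% interval 0.429% to 0.436%) and 0.304% in *trf4*∆ (0.300% to 0.308%). These intervals cover counting error only, with 1 library per strain. The density of the median ORF, normalized on ORF reads, was also higher in *xrn1*∆ *trf4*∆, with a ratio of 1.72-fold. A higher value is thus not particular to these genes.

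The ATP synthase held the genes of lowest ratio. Its 13 genes had a median log2 ratio of 0.70, 0.08 below the ORF median. Of these genes, 3 were at least 2-fold higher (23.1%, against 40.1% of ORFs). *ATP1* (YBL099W, chromosome II of R64, 37053 to 38690, plus strand) encodes the α subunit of the catalytic F1 head. It had a density of 2.53 in *xrn1*∆ *trf4*∆ (6616 reads), against 2.88 in *trf4*∆ (4715 reads), and its log2 ratio of -0.19 (95% interval -0.24 to -0.13) was the lowest of the 39 genes. *ATP2* (YJR121W, chromosome X of R64, 647607 to 649142, plus strand) encodes the β subunit that carries the catalytic sites. Its density was 4.24 in *xrn1*∆ *trf4*∆ (10397 reads), against 4.29 in *trf4*∆ (6584 reads), and the interval of its log2 ratio, -0.06 to 0.03, holds 0. The mRNAs of the α and β subunits were the most abundant of the ATP synthase in both libraries, though *ATP16* (2.25) came close to *ATP1* in *xrn1*∆ *trf4*∆. Both subunits occur in several copies per enzyme, and a link between copies and mRNA level was not tested.

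The other subunits of F1 form its central stalk. *ATP3*, for the γ subunit, had a density of 1.02 in *xrn1*∆ *trf4*∆ and 0.643 in *trf4*∆ (log2 ratio 0.67). *ATP15*, for the ε subunit, had 2.23 in *xrn1*∆ *trf4*∆ and 1.37 in *trf4*∆ (0.70). *ATP16*, for the δ subunit, had the highest ratio of the ATP synthase, with 2.25 in *xrn1*∆ *trf4*∆ (1732 reads), against 0.805 in *trf4*∆ (389 reads), a log2 ratio of 1.48 (1.32 to 1.64). The 5 genes of F1 thus spanned log2 ratios of -0.19 to 1.48, the same range as that of the whole enzyme.

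The remaining genes encode the peripheral stalk and the membrane part of the enzyme. *ATP4*, for subunit b of the stalk, had a density of 1.10 in *xrn1*∆ *trf4*∆ and 0.927 in *trf4*∆, a log2 ratio of 0.24 (0.11 to 0.38). *ATP5*, for the oligomycin sensitivity-conferring protein that joins stalk and head, had 1.59 in *xrn1*∆ *trf4*∆ and 1.21 in *trf4*∆ (0.39). *ATP7*, for subunit d, had 1.76 in *xrn1*∆ *trf4*∆ and 1.13 in *trf4*∆ (0.64). *ATP14*, for subunit h, departed from these with 1.68 in *xrn1*∆ *trf4*∆, against 0.613 in *trf4*∆, a log2 ratio of 1.46 (1.25 to 1.67). The small membrane subunits lay near the ORF median. *ATP17* had a log2 ratio of 0.87, *ATP18* 0.96, and *TIM11* and *ATP20*, whose products are subunits e and g that hold ATP synthase dimers together, 0.82 and 1.03. *ATP20* was the least expressed gene of the enzyme, with a density of 0.399 in *xrn1*∆ *trf4*∆ and 0.195 in *trf4*∆.

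**Figure D2:**
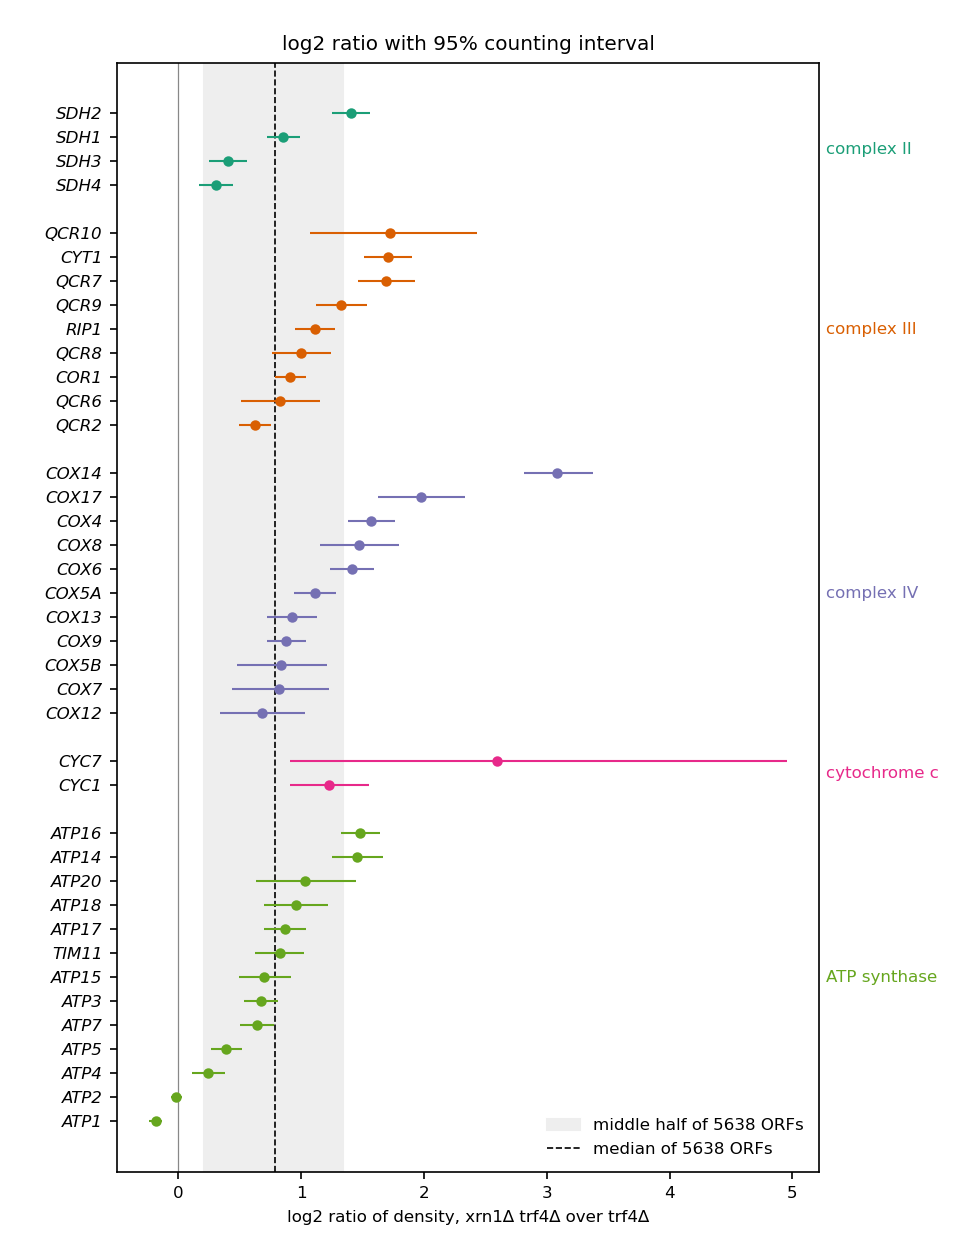
Density in *xrn1*∆ *trf4*∆ over that in *trf4*∆, as a log2 ratio, for each of the 39 genes, with the exact 95% counting interval as a bar, by complex. The dashed line marks the ORF median of 0.78 and the grey band the ORF quartiles of 0.20 and 1.34. *COX14* (3.09) lies right of all others and *ATP1* (-0.19) left of them.

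In complex II, *SDH2* had the highest ratio and both membrane anchors the lowest. Over its 4 genes the median log2 ratio was 0.63, and 1 gene was at least 2-fold higher (25%, against 40.1% of ORFs). *SDH2*, for the iron-sulfur subunit, had a density of 1.41 in *xrn1*∆ *trf4*∆ and 0.531 in *trf4*∆, a log2 ratio of 1.41 (95% interval 1.25 to 1.56). *SDH1*, for the flavoprotein subunit that oxidizes succinate, had 0.560 in *xrn1*∆ *trf4*∆ and 0.310 in *trf4*∆, a log2 ratio of 0.85 (0.72 to 0.99). The membrane anchors lay lower, below the ORF median with their whole intervals. *SDH3* had 1.13 in *xrn1*∆ *trf4*∆ and 0.851 in *trf4*∆, a log2 ratio of 0.40 (0.25 to 0.56). *SDH4* had 1.40 in *xrn1*∆ *trf4*∆ and 1.14 in *trf4*∆, a log2 ratio of 0.30 (0.16 to 0.45). In both libraries the mRNAs of both anchors were thus above that of the flavoprotein.

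In complex III, all 9 genes were higher in *xrn1*∆ *trf4*∆ (82% of ORFs were), 5 of them at least 2-fold (40.1% of ORFs), with a median log2 ratio of 1.11, 0.33 above the ORF median. The lowest ratios were those of the core proteins and the acidic hinge protein. *QCR2*, for a core protein, had a density of 0.919 in *xrn1*∆ *trf4*∆ and 0.598 in *trf4*∆, a log2 ratio of 0.62 (95% interval 0.49 to 0.75). *COR1*, for the other core protein, had nearly the same density, 0.920, in *xrn1*∆ *trf4*∆ and 0.490 in *trf4*∆ (log2 ratio 0.91). *QCR6*, for the hinge protein, had 0.436 in *xrn1*∆ *trf4*∆ and 0.245 in *trf4*∆ (0.83). The mRNAs of both core proteins thus differed less in *xrn1*∆ *trf4*∆ than in *trf4*∆.

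The genes of the electron-carrying subunits had higher ratios. *CYT1*, for cytochrome *c*1, had a density of 0.885 in *xrn1*∆ *trf4*∆ (1315 reads), against 0.272 in *trf4*∆ (253 reads), a log2 ratio of 1.70 (1.51 to 1.90). *RIP1*, for the Rieske iron-sulfur protein, had 1.37 in *xrn1*∆ *trf4*∆ and 0.636 in *trf4*∆ (1.11). Of the small subunits, *QCR7* had 1.51 in *xrn1*∆ *trf4*∆, against 0.469 in *trf4*∆, with a log2 ratio of 1.69 (1.46 to 1.93), and *QCR8* had 1.32 in *xrn1*∆ *trf4*∆ and 0.663 in *trf4*∆, a 1.99-fold difference. The intron-containing genes *QCR9* and *QCR10* had log2 ratios of 1.33 and 1.72. *QCR10* had the highest ratio of the complex but the fewest reads, 121 in *xrn1*∆ *trf4*∆ and 23 in *trf4*∆, and an interval of 1.07 to 2.43. The densities of both genes are per nucleotide of the whole gene, intron included. Division by this length lowers their level beside genes without an intron and cancels in the ratio. Reads from the introns may be among those counted, and their part in the ratio was not tested. If all reads came from exons, the density of *QCR9* would be 2.96 in *xrn1*∆ *trf4*∆ (instead of 1.44) and 1.18 in *trf4*∆ (instead of 0.572).

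Complex IV held the gene with the largest difference. All 11 genes were higher in *xrn1*∆ *trf4*∆ (82% of ORFs were), 6 of them at least 2-fold (40.1% of ORFs), with a median log2 ratio of 1.11. *COX14* (YML129C, chromosome XIII of R64, 14541 to 14753, minus strand) encodes a factor that couples synthesis of the mitochondrial Cox1p to assembly of the enzyme. It had a density of 4.51 in *xrn1*∆ *trf4*∆ (1533 reads), against 0.531 in *trf4*∆ (113 reads), an 8.50-fold difference and a log2 ratio of 3.09 (95% interval 2.81 to 3.38). This ratio ranked 22 of the 5638 ORFs. The next gene on the same strand, *MSC1*, which lies 381 nt upstream, had a log2 ratio of 2.17, with 2854 reads in *xrn1*∆ *trf4*∆ and 396 in *trf4*∆. *ERO1*, on the other side at a distance of 1366 nt, had 0.34. *COX17* (YLL009C, chromosome XII of R64, 131205 to 131414, minus strand) encodes a copper chaperone that delivers copper for the assembly of the enzyme. Its density was 1.48 in *xrn1*∆ *trf4*∆ (495 reads), against 0.376 in *trf4*∆ (79 reads), a log2 ratio of 1.97 (1.63 to 2.33). *COX14* and *COX17* are the genes of complex IV listed here whose products are not subunits of the enzyme, and they had its highest ratios.

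The ratios of the 9 genes for subunits of complex IV were lower, between 0.68 and 1.57. *COX4* had a density of 0.984 in *xrn1*∆ *trf4*∆ and 0.332 in *trf4*∆, a log2 ratio of 1.57. It is the 1 gene whose density gave no whole reads with the R64 length, and the smallest whole reads that fit, 1292 in *xrn1*∆ *trf4*∆ and 273 in *trf4*∆, belong to a length of 822 nt, against 468 nt in R64. *COX8* had 1.18 in *xrn1*∆ *trf4*∆ and 0.426 in *trf4*∆ (log2 ratio 1.47), and *COX6* had 1.85 in *xrn1*∆ *trf4*∆ and 0.696 in *trf4*∆ (1.41). The other subunit genes lay nearer the ORF median. *COX13* had a log2 ratio of 0.92, *COX9*, the most abundant of these mRNAs in *xrn1*∆ *trf4*∆, 0.88 (density 4.59, against 2.49 in *trf4*∆), *COX7* 0.82 and *COX12* 0.68. The intervals of the last 4 genes hold the ORF median.

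Subunit 5 of complex IV and cytochrome *c* each have an aerobic and a hypoxic isoform. *COX5A* (YNL052W, chromosome XIV of R64, 531725 to 532186, plus strand) is used with oxygen, and its density was 1.77 in *xrn1*∆ *trf4*∆ (1307 reads) and 0.820 in *trf4*∆ (379 reads), a log2 ratio of 1.11 (0.94 to 1.28). *COX5B* (YIL111W, chromosome IX of R64, 155222 to 155765, plus strand, with an intron) is used when oxygen is low. It had 0.282 in *xrn1*∆ *trf4*∆ (245 reads) and 0.158 in *trf4*∆ (86 reads), a log2 ratio of 0.84 (0.48 to 1.21), so the intervals of both isoforms overlap. *CYC1* (YJR048W, chromosome X of R64, 526335 to 526664, plus strand), for the aerobic cytochrome *c*, had 0.729 in *xrn1*∆ *trf4*∆ (384 reads) and 0.312 in *trf4*∆ (103 reads), a log2 ratio of 1.22 (0.91 to 1.55). *CYC7* (YEL039C, chromosome V of R64, 79636 to 79977, minus strand), for the hypoxic one, had 0.0531 in *xrn1*∆ *trf4*∆ (29 reads) and 0.00877 in *trf4*∆ (3 reads). Its log2 ratio of 2.60 has an interval of 0.91 to 4.96 and overlaps that of *CYC1*. In each library the aerobic isoform was above the hypoxic one for both proteins.

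The isoforms were compared in sequence, since reads were aligned with up to 3 mismatches. The coding sequences of *COX5A* and *COX5B* are 66.4% identical over 453 aligned nt, and their longest identical run is 12 nt. No stretch of 50 nt of either is within 3 mismatches of the other without gaps, the fewest being 6. Those of *CYC1* and *CYC7* are 77.0% identical over 330 nt. Their longest identical run of 35 nt, shown here to set it beside the 50 nt of a read, starts at base 226 of the *CYC1* coding sequence and base 238 of that of *CYC7* (R64, coding strand, with the whole run in capitals as the shared part).
*CYC1* and *CYC7*: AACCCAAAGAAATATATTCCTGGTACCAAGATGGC
For this pair, 21 of 281 such stretches of *CYC1* are within 3 mismatches of *CYC7*. Whether reads of one were counted for the other was not tested, and the value of *CYC7*, with its few reads, is uncertain to that extent. Without mismatches, in all 39 genes, each stretch of 50 nt occurs at 1 place of the R64 genome, and 0 of the genes overlap another gene annotated there. Antisense transcripts could add reads if strand was not used in counting, which the methods do not state.

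The ratio varied with expression level and with length, here as among all ORFs. ORFs were divided into 10 groups by mean log2 density of both libraries. In the group of highest density, where the ORF median log2 ratio was -0.07, lie *ATP1*, *ATP2* and *COX9*. The next 2 groups, with ORF medians of 0.33 and 0.57, hold 11 and 14 of the 39 genes, whose medians were 0.87 and 1.05, and 10 and 12 of them lay above the ORF median of their group. In all, 31 of the 39 genes were above the median of the ORFs of like density, by 0.43 at the median gene. Grouping by length gave another picture. The genes are short, with a median of 444 nt, against 1213 nt for ORFs, and 21 of them fall in the shortest of 10 length groups, where the ORF median was 1.03 and theirs was 1.03. Of the 39, 18 were above the median of ORFs of like length. Across the 39 genes Spearman's rho was -0.35 between ratio and mean log2 density and -0.38 between ratio and length, and across ORFs it was -0.32 (n = 5638) and -0.15 (n = 5633). These are descriptions across genes, which share both libraries and are not independent replicates. The part of level and length in the ratios was not tested.

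**Figure D3:**
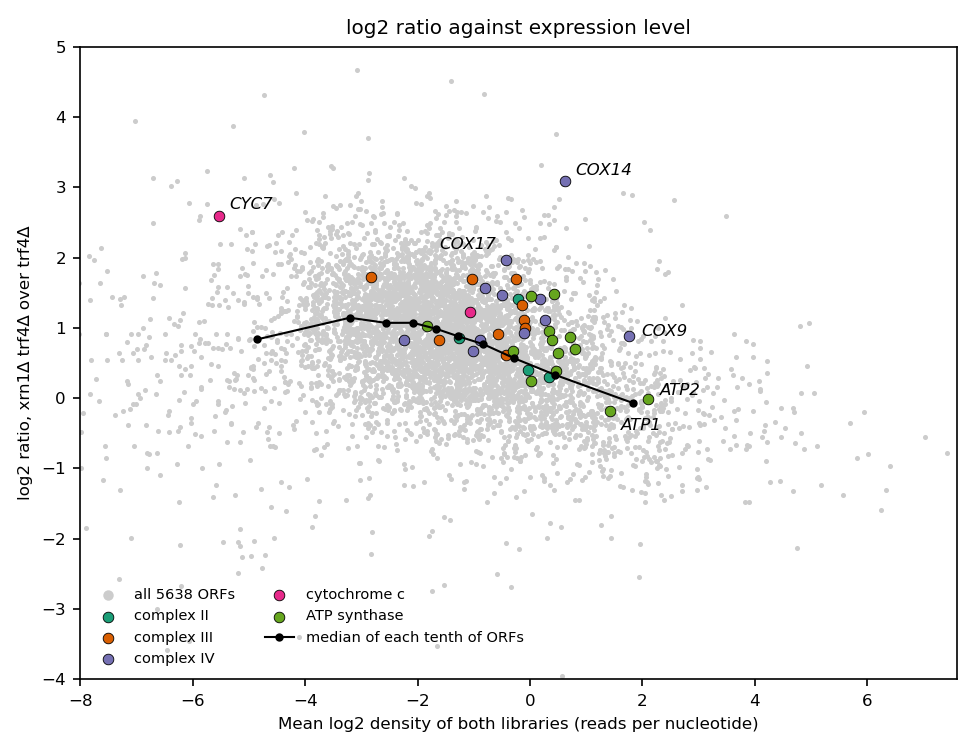
Density in *xrn1*∆ *trf4*∆ over that in *trf4*∆, as a log2 ratio, against the mean log2 density of both libraries, for all ORFs with reads in both (grey, 47 lie outside the axes) and for the 39 genes, coloured by complex. The black line joins the medians of 10 groups of ORFs, and 31 of the 39 genes lie above the median of their group.

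The mitochondrially encoded subunits of the same complexes went the other way. All 7 were lower in *xrn1*∆ *trf4*∆, where 1014 of the 5638 nuclear ORFs compared were lower. Of the 7, 4 were at least 2-fold lower (2.63% of ORFs). The median log2 ratio of the 7 was -1.04. In complex IV, *COX1* had a density of 1.29 in *xrn1*∆ *trf4*∆ and 3.44 in *trf4*∆ (log2 ratio -1.42), *COX2* had 3.02 in *xrn1*∆ *trf4*∆ and 4.66 in *trf4*∆ (-0.63), and *COX3* had 2.63 in *xrn1*∆ *trf4*∆ and 3.37 in *trf4*∆ (-0.36). These do not overlap the range of 0.68 to 3.09 of the nuclear genes of that complex. Many nuclear ORFs also lie below that range, since its lowest gene, *COX12*, stands at the 45.2th percentile of ORF ratios. In complex III, *COB*, for cytochrome *b*, had 0.483 in *xrn1*∆ *trf4*∆ and 1.23 in *trf4*∆ (-1.34), below all 9 nuclear genes. The lowest of those, *QCR2*, stands at the 42.4th percentile of ORF ratios. In the ATP synthase, *ATP6* had 1.37 in *xrn1*∆ *trf4*∆ and 3.87 in *trf4*∆ (-1.50), and *ATP8* had 0.481 in *xrn1*∆ *trf4*∆ and 0.993 in *trf4*∆ (-1.04). *OLI1*, for the proton-carrying ring, had 9.05 in *xrn1*∆ *trf4*∆ and 13.9 in *trf4*∆ (-0.62). The ratios of all of these lay below that of *ATP1*. *COX1* and *COB* are counted over spans that include introns, some with reading frames of their own. No scale between the libraries changes the order of nuclear and mitochondrial subunits. Densities are relative to the ORF reads of each library, so a lower density does not show less mitochondrial RNA per cell. The RNA came from whole cultures, and the number of mitochondria per cell and the RNA per mitochondrion were not tested.

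Other nuclear genes of the pathway differed by list, and these lists were chosen with earlier results of these data known. All 37 assembly factors were higher in *xrn1*∆ *trf4*∆, 31 of them at least 2-fold (83.8%, against 40.1% of ORFs), with a median log2 ratio of 1.61. They ranged from *OXA1* (0.30), for the insertase of mitochondrially made proteins, to *PET117* (2.88), for an assembly factor of complex IV. *PET117* had 165 reads in *xrn1*∆ *trf4*∆ and 14 in *trf4*∆. *COX14* (3.09) and *COX17* (1.97) of complex IV, assembly proteins themselves, lay above that median. The 16 activators of mitochondrial translation and RNA processing had a median of 1.56. Of these, 15 were at least 2-fold higher (93.8%, against 40.1% of ORFs). The highest was *PET494* (2.48), and the exception *PET122* (-0.21), both for activators of *COX3* translation. Assembly factors and activators are expressed at lower levels than the structural genes, with median densities of 0.524 and 0.373 in *xrn1*∆ *trf4*∆ and of 0.168 and 0.110 in *trf4*∆. In the groups of ORFs by density, median log2 ratios ran from -0.07 to 1.15. The genes of these lists were not matched to those groups, and the part of level in their ratios was not tested.

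The enzymes of the TCA cycle, which feed the chain, stood at the other end. Of 11 genes, 7 were higher in *xrn1*∆ *trf4*∆ (63.6%, against 82% of ORFs), 0 were at least 2-fold higher (40.1% of ORFs) and 0 at least 2-fold lower (2.63% of ORFs), with a median log2 ratio of 0.10. *ACO1*, for aconitase, had the highest ratio (0.78), and *LPD1*, for lipoamide dehydrogenase, the lowest (-0.47). Their median density was 1.69 in *xrn1*∆ *trf4*∆ and 1.08 in *trf4*∆. Of the 6 dehydrogenases that pass electrons to the chain at other points, 5 were higher (83.3%, near the 82% of ORFs). *NDI1*, for the internal NADH dehydrogenase that takes the place of complex I, had 0.634 in *xrn1*∆ *trf4*∆ and 0.220 in *trf4*∆ (log2 ratio 1.53), the highest. *NDE2*, for an external one, had -0.46, on 29 reads in *xrn1*∆ *trf4*∆ and 25 in *trf4*∆. Among 7 inhibitors of the ATP synthase and carriers of ADP and phosphate, 4 were at least 2-fold higher (40.1% of ORFs were), the highest of them *INH1*, for the inhibitor of ATP hydrolysis (1.63). *AAC3*, for the ADP/ATP carrier used without oxygen, was lowest (-0.73). Of 5 paralogs and late-named subunits outside the list, *ATP19*, for subunit k of the ATP synthase, had the highest ratio (1.62) and *SHH3*, a paralog of *SDH3*, the lowest (-0.68, on 11 reads in each library).

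**Figure D4:**
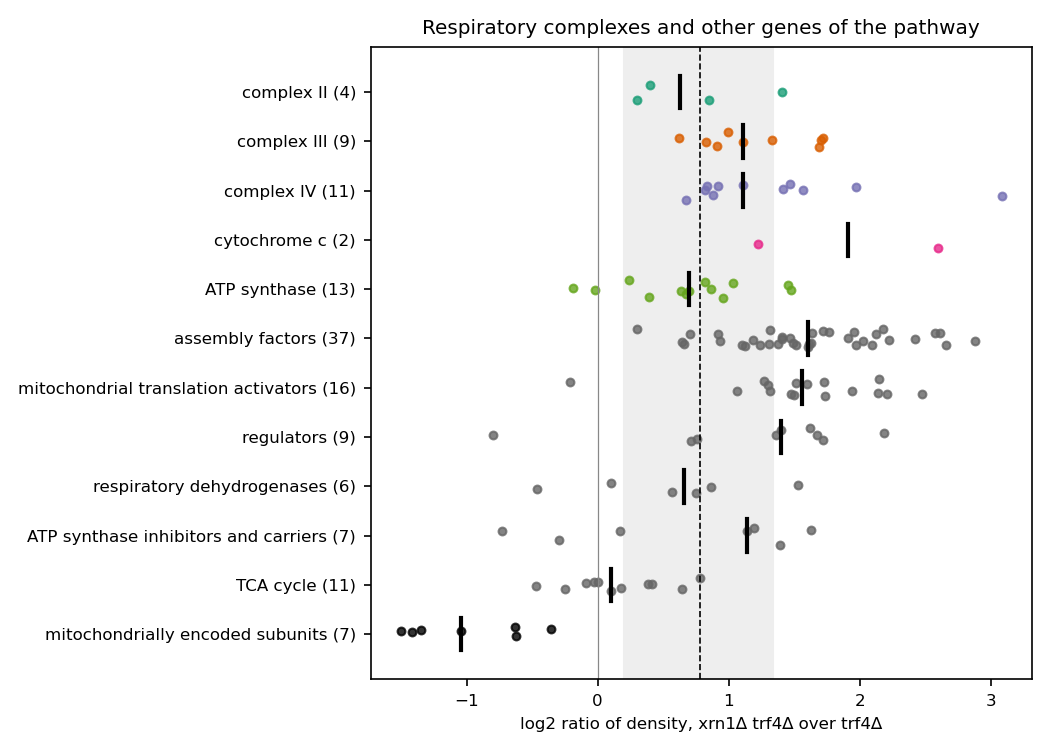
Density in *xrn1*∆ *trf4*∆ over that in *trf4*∆, as a log2 ratio, by complex and for the other gene lists, 1 point per gene, with the number of genes in brackets and the median as a black bar. The dashed line marks the ORF median of 0.78 and the band its quartiles. The 37 assembly factors centre on 1.61, the 11 TCA cycle genes on 0.10 and the 7 mitochondrially encoded subunits on -1.04.

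Of 9 regulators of these genes, 8 were higher (88.9%), near the 82% of ORFs. At least 2-fold higher were 6 of the 9 (66.7%, against 40.1% of ORFs). The median log2 ratio of the 9 was 1.40, against an ORF median of 0.78. *HAP4*, for the glucose-repressed activating subunit of the CCAAT-binding complex, had a density of 0.476 in *xrn1*∆ *trf4*∆ (1265 reads) and 0.185 in *trf4*∆ (308 reads), a log2 ratio of 1.36 (95% interval 1.18 to 1.55). Its DNA-binding partners *HAP2*, *HAP3* and *HAP5* had 1.62, 2.18 and 1.40. *HAP1*, for the heme-dependent activator of *CYC1* and other genes, was the 1 regulator that was lower, with 0.228 in *xrn1*∆ *trf4*∆ and 0.397 in *trf4*∆ (-0.80). *PUF3* had 0.400 in *xrn1*∆ *trf4*∆ and 0.236 in *trf4*∆ (0.76), near the ORF median. The retrograde signalling genes *RTG1*, *RTG2* and *RTG3* had 1.67, 0.71 and 1.72. The BY4741 background carries a Ty insertion in *HAP1*, as is known for its parent S288c.

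The letters of the CCAAT box are common upstream of the 39 genes. They were searched as CCAAT on either strand in the 300 bases before the start codon, in the R64 genome. A match lies upstream of 33 of the 39 genes (84.6%), against 42.3% of 5769 ORFs, and of all 4 genes of complex II, 7 of 9 of complex III, 9 of 11 of complex IV and all 13 of the ATP synthase. For *COX14*, *COX4*, *COR1*, *CYT1*, *CYC1* and *CYC7* these letters are not in the window, and sites elsewhere were not searched. The match nearest the start codon is shown for some of the 33 genes as examples, from complexes II, III and IV and the ATP synthase. Each is given in 30 bases of the coding strand with CCAAT, or its reverse complement ATTGG, in capitals. This shows where the letters lie and what surrounds them.
*SDH3* (chrXI:179626-179655, plus strand, 29 bases before the start codon): aaccaaaaattgCCAATcacaagctctaag
*RIP1* (chrV:107001-107030, plus strand, 247 bases before): ctccataacggaCCAATcagcgttttgcgc
*QCR7* (chrIV:1496712-1496741, minus strand, 181 bases before): atcttgttttgaCCAATcaggagcgacgcg
*COX6* (chrVIII:209478-209507, plus strand, 215 bases before): aaaagggacctaATTGGtccggtcaaagca
*COX9* (chrIV:334526-334555, minus strand, 147 bases before): tactgcaacctgATTGGcccgctaccacga
*ATP1* (chrII:36774-36803, plus strand, 267 bases before): atagctctttcaATTGGtcttattagattg
*ATP2* (chrX:647549-647578, plus strand, 46 bases before): gtctgttgttatCCAATttatactgaatct
*ATP16* (chrIV:442853-442882, plus strand, 164 bases before): atagatgcccagCCAATcaaagcgcattat
The ratio did not follow this feature among ORFs, whose median log2 ratio was 0.81 with a match and 0.77 without. Among the 39 genes it was 0.87 with a match and 1.63 over the 6 genes without.

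The letters of a Puf3p site lie after fewer of these genes. They were searched as TGTANATA on the coding strand in the 300 bases after the stop codon, N being any base, with overlapping matches counted. A match lies after 11 of the 39 genes (28.2%), against 16.8% of 5765 ORFs. In the 300 bases before the start codon, the same letters were found for 7.69% of the 39 genes and 8.16% of ORFs. The gene lists differed widely, since a match lies after 33 of the 37 assembly factors (89.2%) and 11 of the 16 activators (68.8%), but after 1 of the 11 TCA cycle genes. The sites of complexes IV and II are shown in 30 bases of the coding strand with the match in capitals, since *COX14*, *COX17* and *SDH2* had the highest ratios of these complexes, and that of *ATP1* stands beside them as the gene of lowest ratio.
*COX17*, site nearest the stop codon (chrXII:131155-131184, minus strand, 32 bases after the stop codon): caaccatttctTGTATATAtaagaataggt
*COX17*, second site (chrXII:131110-131139, minus strand, 77 bases after): tatatactaccTGTAAATAtgtgcgatgca
*COX14* (chrXIII:14381-14410, minus strand, 142 bases after): atttacgaaccTGTATATAataattaaatc
*COX8* (chrXII:909679-909708, minus strand, 32 bases after): ggatagatgtgTGTACATAgcgtgcttggt
*SDH2* (chrXII:52915-52944, minus strand, 198 bases after): atgacccggtcTGTATATAtgtccatcata
*SDH1* (chrXI:169090-169119, minus strand, 99 bases after): actcactaattTGTATATAtacctattaat
*ATP1* (chrII:38729-38758, plus strand, 50 bases after): tcaaaaagaaaTGTAAATAtagaaatttta
*COX17* is the 1 gene of the 39 with more than 1 such site. In complex IV the 3 genes with a match, *COX14*, *COX17* and *COX8*, had log2 ratios of 3.09, 1.97 and 1.47, while *COX4* (1.57) and *COX6* (1.41), without a match, lay above and just below *COX8*. In complex II *SDH2* and *SDH1*, with a match, were above both anchors, which have none. In complex III the 1 gene with a match, *COR1*, had 0.91, below the complex median, and in the ATP synthase the 5 genes, *ATP1*, *ATP5*, *TIM11*, *ATP18* and *ATP14*, spanned -0.19 to 1.46. Over all 39 genes the median was 0.96 with a match and 0.90 without. Among ORFs it was 0.95 with and 0.75 without, a count of 954 and 4677 ORFs, and within the assembly factors it was 1.61 with a match and 1.57 over the 4 genes without.

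**Figure D5:**
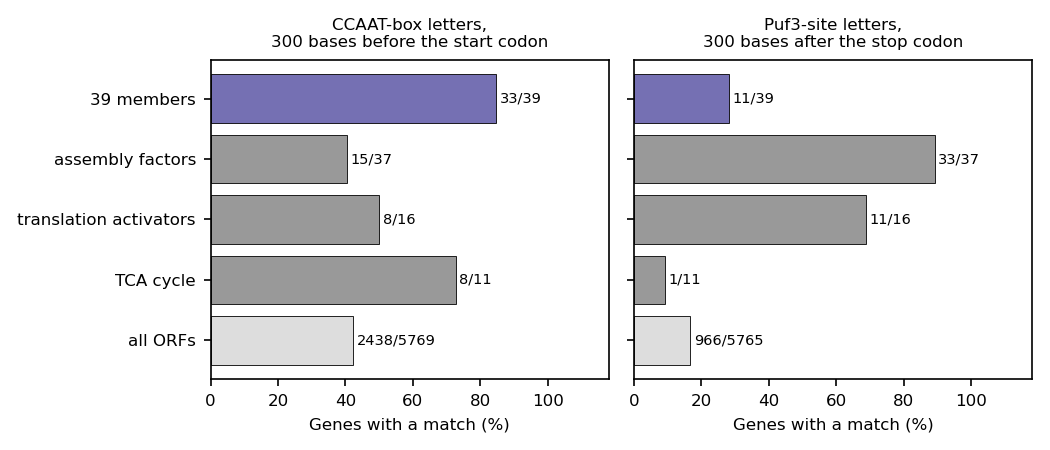
Share of genes (%) with the letters of the CCAAT box within 300 bases before the start codon (left) and with those of a Puf3p site within 300 bases after the stop codon (right), for the 39 genes, 3 other lists and all ORFs with a full window, with counts beside the bars. The 39 genes stand at 84.6% and 28.2%, the assembly factors at 40.5% and 89.2%, and all ORFs at 42.3% and 16.8%.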

How the data were processed

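The authors sequenced 50 nt of rRNA-depleted total RNA on a SOLiD instrument, aligned reads with Bowtie 0.12.7, allowing up to 3 mismatches, to the S288c genome and kept reads of unique position. SAMtools is also named in the submitters' processing notes. The deposited values are a coverage signal, as reads per nucleotide of a transcript, which the authors normalized on the reads of all ORFs. The genome release and the use of strand are not given in the sources used here. Both value columns were used.

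Names, coordinates and sequences come from RefSeq's R64 assembly. The deposited table holds no coordinates. Reads are densities times the R64 length, where whole within 0.01, and 1 read of *xrn1*∆ *trf4*∆ is worth 0.626. Reads without molecular identifiers are not independent molecules. Groups are given by counts and medians, beside those of all ORFs compared. No test was possible with 1 library per strain, and the DESeq analysis of the study was not repeated.

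The genes and lists were chosen with earlier results of these data known. All genes of the complexes were to be accounted for, with values for the highest and lowest ratio of each complex, isoform pairs, the 5 highest densities and ratios of at least 2 or below 0 on the log2 scale. In other lists the highest and lowest ratios, all regulators and all mitochondrially encoded subunits were named. *MSC1* and *ERO1* were named after their values were seen. Identity of isoforms was to be computed on proteins and was computed on coding sequences. The alternatives tried were adding 0.01 or 0.1 to the densities, a minimum mean density of 0.05, 3 scalings, the mean, and leaving out hypoxic isoforms. Functions were tested on simulated data. Computation used SciPy 1.17.1, pandas 2.3.3, Biopython 1.88, NumPy 2.4.6 and matplotlib 3.10.9 under Python 3.11.15.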

Additional observations from a re-analysis of the deposited data

How the results depend on the processing

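Changes are given where an alternative moved a value out of its 95% interval, or a count by over 1.5 times. For single genes this is the counting interval. For the 39 genes, complexes and lists it is an interval of the median from the ranked ratios of the genes (0.82 to 1.33 for the 39). It reflects the spread among genes, which are not replicates, and not measurement error. For lists of fewer than 6 genes, as complex II and cytochrome *c*, it is the range of the genes, which covers the median less often. No paired analysis was possible because each strain has 1 library. No value was computed without genes that overlap another annotated gene, since there are 0. Scaling to the same median ORF density gave a median log2 ratio of -0.024 for the 39 genes, with 19 higher, 3 at least 2-fold higher and 1 (*ATP1*) at least 2-fold lower. It gave -0.32 for complex II, 0.17 for complexes III and IV each, -0.24 for the ATP synthase, 0.97 for cytochrome *c*, 0.66 for assembly factors, 0.62 for translation activators, -0.84 for the TCA cycle, 0.45 for regulators and -1.99 for mitochondrially encoded subunits. The ORF median is then -0.16. The trimmed mean of ORF log2 ratios (30% from each end) gave 0.14 for the 39 genes, with 3 at least 2-fold higher, -0.16 for complex II, 0.33 for complexes III and IV each, -0.084 for the ATP synthase and 1.13 for cytochrome *c*, beside an ORF median of 0.00058. Both scalings add one amount to every log2 ratio and set ORFs near 0 by construction. A pseudocount of 0.1 gave 0.82 for the 39 genes and 0.75 for cytochrome *c*, beside an ORF median of 0.51. The remaining 49 of 72 values stayed within these limits. Of single genes, 38 of 39 left their interval under each of these scalings, 5 with a pseudocount of 0.1 and 2 with equal sums of ORF densities. *CYC7*, with 3 reads in *trf4*∆, has the widest interval.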
